A study of Homo sapiens with 6 samples.

Results

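The 10 genes described here encode subunits of the transcription factor NF-κB (RELA, RELB, NFKB1 and NFKB2), inhibitors and feedback regulators of the pathway (NFKBIA, NFKBIZ, TNFAIP3 and BIRC3) and the further inducible genes TNFAIP2 and ICAM1. They were chosen by their symbols from the 29476 genes of the count table, and all 10 were among the 15615 genes with enough reads to be tested. RNA-seq of polyadenylated RNA was performed in A549, an established human lung adenocarcinoma cell line, with 3 libraries from cells transfected with a nontargeting control siRNA (siCtrl) and 3 from cells transfected with an siRNA against DDX17 (siDDX17). DDX17 is an RNA helicase of the DEAD-box family. Both groups received the siRNA with a Lipofectamine reagent, no inflammatory stimulus is named for either group, and each group rests on a single siRNA sequence. The sample labels describe the control as a control plasmid, whereas the methods give a nontargeting siRNA. A harvest at 48 h after transfection is stated for RT-qPCR, and no other time is given for the sequenced cultures.

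NF-κB is a family of dimers built from the Rel proteins. In resting cells the dimers are held in the cytoplasm by IκB proteins such as the product of NFKBIA, and kinases activated by TNF, IL-1 or Toll-like receptors mark the IκB for destruction, which releases the dimers to the nucleus. In the noncanonical branch, the kinase encoded by MAP3K14 leads to processing of the NFKB2 precursor, which pairs with RELB. Many genes of the pathway are themselves NF-κB targets, including NFKBIA and TNFAIP3, which switch the signal off again, and several chemokine genes that attract neutrophils and lymphocytes in the airway.

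To show the sequence context of these genes, the κB consensus, a motif of 10 bases bound by NF-κB dimers, was searched on both strands of the RefSeq promoter windows (GRCh38.p14), which run from 250 bases before to 50 bases after each transcription start. A window was held for 9 of the 10 genes (not for RELB), and at least 1 match was present for 6 of them. No match was found in the windows of RELA, TNFAIP2 and ICAM1, which says only that these letters are not in those windows. Over all 35116 promoter windows, 5.91% held a match. Counted per gene, 8.97% of the tested genes with a window had a match. Among the tested genes with a window, a match was present for 8.70% of the genes that were lower in siDDX17 and 9.51% of those that were higher, against 8.83% of the genes that did not pass the test. The members' matches are shown as a description of the genes and not as binding sites. In the following 30-base windows, read 5′ to 3′ on the strand of the gene, the capitals mark the motif. Where it lies on the opposite strand, its reverse complement is in capitals.
NFKB1: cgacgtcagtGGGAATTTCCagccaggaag
NFKB2, first start: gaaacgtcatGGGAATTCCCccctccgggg
NFKB2, second start: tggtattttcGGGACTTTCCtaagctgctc
NFKBIA, opposite strand: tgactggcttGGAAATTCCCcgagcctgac
NFKBIZ: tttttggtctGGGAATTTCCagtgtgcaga
TNFAIP3, opposite strand: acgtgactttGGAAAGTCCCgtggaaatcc
BIRC3, opposite strand: tttgggtcatGGAAATCCCCgagtgggttt
CXCL5: catgagttcaGGGAATTTCCccagcatccc
CCL20, opposite strand: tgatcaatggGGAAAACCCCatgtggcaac

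The NFKB1 window lies at chr4:102501300-102501329 on the plus strand, with the motif from 49 to 40 bases before the RefSeq start. The NFKB2 windows lie at chr10:102394461-102394490 and chr10:102395674-102395703 (plus strand), and both are exonic in GENCODE release 44. The NFKBIA window lies at chr14:35404811-35404840 (minus strand), that of NFKBIZ at chr3:101827757-101827786 (plus strand), that of TNFAIP3 at chr6:137867182-137867211 (plus strand) and that of BIRC3 at chr11:102317275-102317304 (plus strand), and these 4 are upstream of the annotated genes. The chemokine windows are at chr4:73998749-73998778 (minus strand, upstream of CXCL5) and chr2:227813753-227813782 (plus strand, in an intron of the CCL20 annotation). NFKB1, NFKBIZ and CXCL5 carried the same 10 bases, and NFKBIA carried them on the opposite strand. The chemokine genes CXCL1, CXCL2 and CXCL3, whose windows are not printed, carried these bases too. CXCL1 did not pass the test (log2 fold change -0.17), whereas CXCL2 and CXCL3 were lower in siDDX17 (-1.06 and -2.12). In the first NFKB2 window and in that of CXCL5, the printed match overlaps another on the opposite strand, 1 base further on. Further matches of NFKB2, NFKBIZ, TNFAIP3 and BIRC3 are not printed.

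The counts of the 6 libraries summed to between 30658136 and 39182371 reads. DDX17 had 177, 184 and 206 CPM (counts relative to a TMM-scaled library size) in siCtrl 1, 2 and 3 against 32.1, 30.8 and 30.4 CPM in siDDX17 1, 2 and 3, a log2 fold change of -2.60 (SE 0.0685). The genes of 3 keratins of simple epithelia, KRT7, KRT8 and KRT18, lay between 1745 and 3416 CPM in every library. Of 6 listed epithelial markers 4 were lower in siDDX17, with log2 fold changes of -0.64 for KRT7 (2601 to 2860.1 CPM in siCtrl, 1745 to 1835 CPM in siDDX17), -0.28 for KRT8, -0.18 for KRT18 and -0.32 for KRT19. CDH1 did not pass (-0.12), and the adhesion gene EPCAM was higher, with only 0.738 to 1.08 CPM in siCtrl and 2.21 to 2.28 CPM in siDDX17. Their summed level was 8135 to 8930.1 CPM in siCtrl and 6579 to 7101 CPM in siDDX17, and the part of these differences in the results below was not tested. The leukocyte marker PTPRC and the endothelial markers CDH5 and VWF lay at or near 0, as did SFTPB and SFTPC of the 4 listed alveolar markers. The monocyte marker CD14, by contrast, had 20.7 to 28.8 CPM over the 6 libraries, and the fibroblast marker COL1A1 had 2.46 to 3.55 CPM. Neither passed the test (adjusted p = 0.0772 and 0.149). NKX2-1 had 0.311 to 0.493 CPM over the 6 libraries and did not pass, and NAPSA was higher in siDDX17 (0.524 to 0.640 against 0.878 to 1.30 CPM, log2 fold change 0.90, adjusted p = 0.00958). Over 9 listed markers of immune, endothelial and fibroblast cells the summed level was 24.2 to 32.5 CPM in siCtrl and 31.2 to 32.1 CPM in siDDX17, of which CD14 made up most. The siCtrl 1 library stood somewhat apart from the other 2 controls, and for the inducible genes below it was often the highest, so values without it are given beside several of them. The p-values rest on the spread between 3 libraries per group, described as biological replicates. In bulk RNA, fewer cells expressing a gene and less RNA per cell cannot be told apart.

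Of the 10 genes, 9 were lower in siDDX17 and 1, NFKBIZ, was higher, all at an adjusted p under 0.05 (quasi-likelihood test of edgeR with Benjamini-Hochberg adjustment over the 15615 genes). By the same limit, 24.3% of all tested genes were lower and 24.5% were higher, so that a pass alone was common. For all 10 genes the 3 siDDX17 libraries lay entirely to one side of the 3 siCtrl libraries. All siDDX17 libraries were below all siCtrl libraries for 27.7% of the tested genes and above them for 28.8%. The median log2 fold change of the 10 genes was -0.73, against 0.01 over all tested genes. A stricter limit also required an absolute log2 fold change over 1. By it, 3 of the genes (NFKB2, BIRC3 and ICAM1) were lower and 0 were higher, against 2.92% and 4.65% of all tested genes. With library sizes alone as the scale, without TMM, NFKB2 (-0.99) and BIRC3 (-0.94) were inside this fold limit. An exact two-sided permutation test of 1 gene at a time gave p = 0.1 for every one of the 10, which is the smallest value that 3 against 3 libraries allow.

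**Figure D1:**
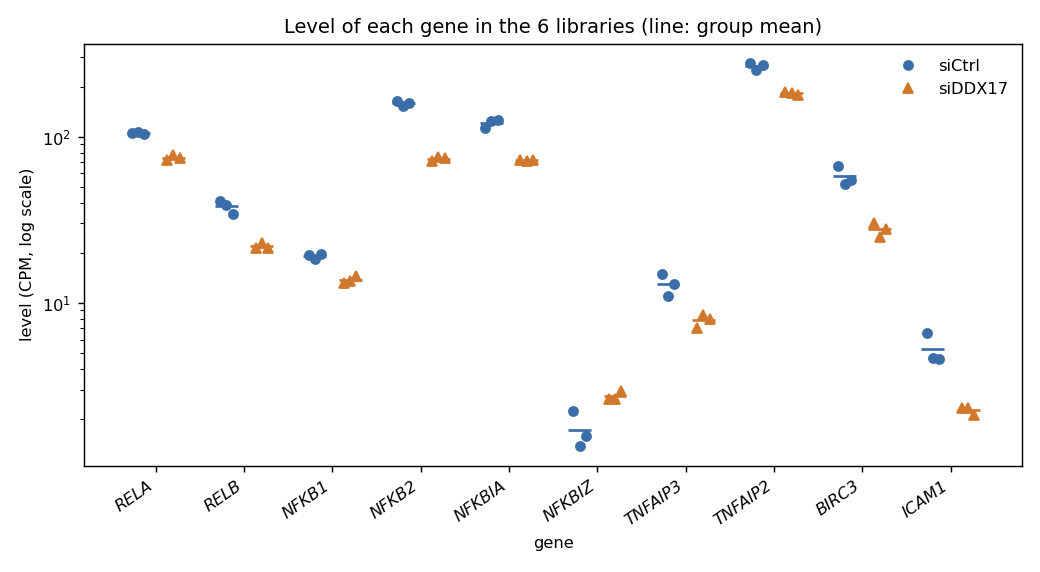
Level of each of the 10 genes in CPM on a log axis, with 1 point for each of the 3 siCtrl (circles) and 3 siDDX17 (triangles) libraries and a line at the group mean. The triangles lie below the circles for 9 genes and above them for NFKBIZ, and no gene shows overlapping groups.

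RELA (ENSG00000173039.18, chromosome 11 from 65653599 to 65663090, minus strand) encodes p65, the subunit that carries the main transactivation domain of canonical NF-κB. It had 104, 106 and 103 CPM in siCtrl 1, 2 and 3 against 72.6, 77.6 and 74.1 CPM in siDDX17 1, 2 and 3. The controls differed from each other by little, with a coefficient of variation of 1.57%, and all siDDX17 libraries were lower. Its log2 fold change was -0.48 (SE 0.0542, adjusted p = 8.65e-06), a change of -28.4%.

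NFKB1 (ENSG00000109320.11, chromosome 4 from 102501330 to 102617302, plus strand) encodes the p105 precursor of p50, the partner of p65. Its levels were 19.3, 18.4 and 19.7 CPM in siCtrl against 13.1, 13.6 and 14.5 CPM in siDDX17. The siDDX17 libraries were all lower, at about the same relative distance as for RELA. This gave a log2 fold change of -0.48 (SE 0.0763, adjusted p = 0.000177).

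In the noncanonical pair the differences were larger. RELB (ENSG00000104856.13, chromosome 19 from 45001461 to 45038192, plus strand), which binds DNA mainly as a dimer with p52, had 40.8, 38.9 and 34.2 CPM in siCtrl against 21.3, 22.7 and 21.4 CPM in siDDX17. Even the lowest control, siCtrl 3, was well above the siDDX17 libraries. RELB had a log2 fold change of -0.80 (SE 0.0767, adjusted p = 2.15e-06), or -42.5%.

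NFKB2 (ENSG00000077150.17, chromosome 10 from 102394110 to 102402524, plus strand), the gene of the p100 precursor of p52, had 164, 152 and 160.04 CPM in siCtrl. In siDDX17 its levels were 71.5, 75.1 and 74.0 CPM. All 3 siDDX17 libraries thus fell under 50% of the lowest control. Its log2 fold change was -1.11 (SE 0.0559, adjusted p = 7.81e-09), which gave NFKB2 the lowest adjusted p of the 10 genes.

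Relative amounts within the Rel family were compared per length, with the deposited FPKM. The gene lengths behind these FPKM are not given in the sources used here, and shares and orders between genes depend on them. The 5 Rel genes summed to 87.35, 80.45 and 81.78 FPKM in siCtrl and to 51.71, 53.99 and 53.67 FPKM in siDDX17. NFKB2 supplied 43.3% ± 1.33 (SD, n = 3) of this sum in siCtrl and 34.4% ± 0.262 in siDDX17, whereas RELA supplied 34.0% ± 0.934 and 41.6% ± 0.347. NFKB2 was therefore the most abundant Rel mRNA per length in every siCtrl library and RELA in every siDDX17 library. The share of RELB overlapped between the groups (18.2% ± 1.30 and 17.9% ± 0.279), and that of NFKB1 was 3.82% ± 0.157 in siCtrl and 4.69% ± 0.250 in siDDX17. REL, the gene of c-Rel, made up 0.765% ± 0.00645 and 1.48% ± 0.161. In CPM, REL had 7.61 to 8.03 in siCtrl and 7.95 to 9.29 in siDDX17 and did not pass the test (log2 fold change 0.17, SE 0.097, adjusted p = 0.16), although it did with library sizes alone (adjusted p = 0.0322). Shares of a sum are tied to one another, so a higher share of RELA stands beside a lower level of RELA.

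Among the IκB proteins, NFKBIA (ENSG00000100906.10, chromosome 14 from 35401079 to 35404749, minus strand) encodes IκBα, which is resynthesized upon NF-κB activation and removes the dimers from the nucleus. It had 112, 124 and 125 CPM in siCtrl against 72.6, 71.5 and 72.6 CPM in siDDX17. The siDDX17 libraries were nearly equal to each other, with a coefficient of variation of 0.859%, and siCtrl 1 was here the lowest control. This corresponded to a log2 fold change of -0.74 (SE 0.0588, adjusted p = 3.99e-07), a change of -40.0%.

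NFKBIZ (ENSG00000144802.11, chromosome 3 from 101827991 to 101861022, plus strand) encodes IκBζ, a nuclear IκB protein that acts as a cofactor for a subset of inflammatory genes. It was the only one of the 10 to be higher, with 2.21, 1.36 and 1.57 CPM in siCtrl against 2.62, 2.63 and 2.93 CPM in siDDX17. The gap to the highest control, siCtrl 1, was small, and the gene was read thinly, with 39 to 113 counts per library. NFKBIZ had a log2 fold change of 0.66 (SE 0.186, adjusted p = 0.00972), which was 0.87 without siCtrl 1. It was 0.52 without siCtrl 2 (adjusted p = 0.0429) and 0.61 without siDDX17 3 (adjusted p = 0.0461), close to the limit of the test. In GENCODE release 44, 3.29% of its exon bases are shared with NXPE3 on the same strand, a neighbour looked up because of this overlap, which had 1152 to 1807 counts per library and a log2 fold change of 0.13 (SE 0.0639, adjusted p = 0.104). How the authors counted reads in such overlaps is not given in the sources used here, and the part of NXPE3 reads in the NFKBIZ values was not tested.

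The other IκB genes did not move as a block. NFKBIE, the gene of IκBε, had 27.0, 25.1 and 27.3 CPM in siCtrl against 8.95, 9.87 and 8.98 CPM in siDDX17, with a log2 fold change of -1.51 (SE 0.0786, adjusted p = 9.41e-09). NFKBIB, the gene of IκBβ, went in the other direction, from 28.5, 29.6 and 26.7 CPM to 44.2, 45.1 and 43.0 CPM (log2 fold change 0.64, SE 0.0638, adjusted p = 2.92e-06). IκBβ is known for being less responsive to NF-κB than IκBα and IκBε. BCL3, a nuclear family member that binds p50 and p52 dimers, was slightly lower at -0.15 (SE 0.0558, adjusted p = 0.0408). This call was kept only with RLE scaling, with the replicate block and without siCtrl 1. It was lost under every other alternative of scaling, tool, filter, values and left-out library, DESeq2 and library sizes alone among them.

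With these opposite values, the make-up of the IκB mRNA differed between the groups. Per length, NFKBIA supplied 53.0% ± 1.46 of the summed FPKM of 6 IκB genes in siCtrl and 41.3% ± 0.681 in siDDX17, and NFKBIB 11.1% ± 0.687 and 22.5% ± 0.562. NFKBIE had a share of 8.59% ± 0.580 in siCtrl and 3.90% ± 0.197 in siDDX17. The ratio of NFKBIE to NFKBIB was between 0.700 and 0.843 in siCtrl and between 0.167 and 0.180 in siDDX17. The ratio of NFKBIA to RELA, the inhibitor to its main target, was 1.91, 2.08 and 2.17 in siCtrl and 1.78, 1.64 and 1.75 in siDDX17. It was lower in every siDDX17 library, since NFKBIA differed more than RELA.

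**Figure D2:**
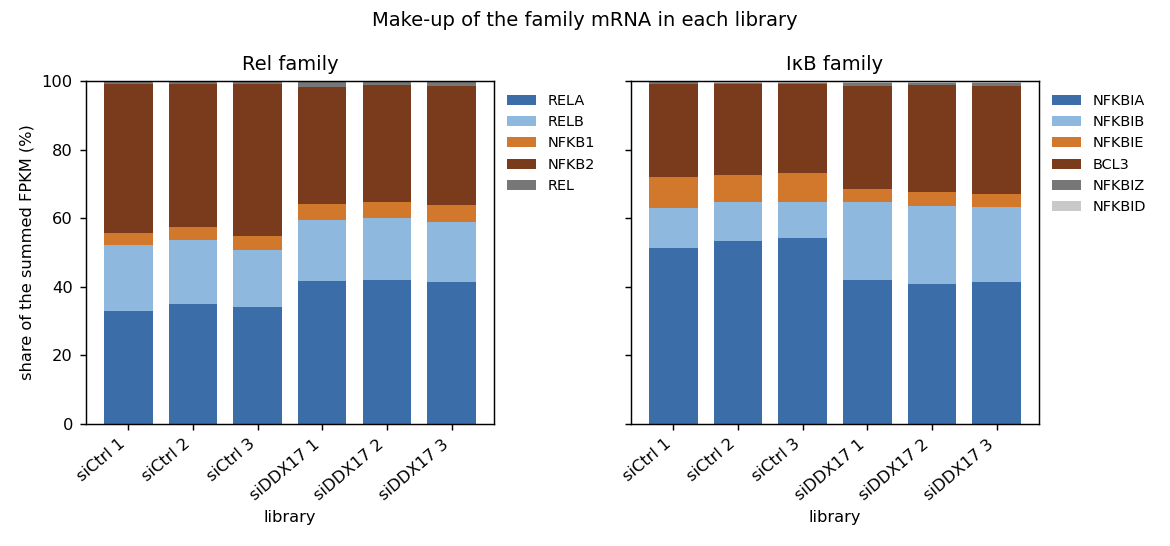
Share of each gene in the summed FPKM of the Rel family (left) and the IκB family (right), in percent, with 1 stacked bar for each library. NFKB2 holds the largest Rel share in the siCtrl bars and RELA in the siDDX17 bars, and the mean share of NFKBIB is 11.1% in siCtrl and 22.5% in siDDX17, beside 53.0% and 41.3% for NFKBIA.

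TNFAIP3 (ENSG00000118503.14, chromosome 6 from 137867214 to 137883314, plus strand) encodes A20, a ubiquitin-editing enzyme that shuts off signalling from the TNF receptor. It had 14.8, 10.9 and 13.0 CPM in siCtrl against 7.08, 8.45 and 8.02 CPM in siDDX17. The controls were spread more widely than the siDDX17 libraries, and the lowest of them, siCtrl 2, still exceeded every siDDX17 library. This gave a log2 fold change of -0.72 (SE 0.116, adjusted p = 0.000193), or -0.62 without siCtrl 1. The ratio of TNFAIP3 to RELA in FPKM overlapped between the groups.

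BIRC3 (ENSG00000023445.13, chromosome 11 from 102317484 to 102339403, plus strand) encodes cIAP2, a ubiquitin ligase that carries the signal from TNF receptors and restrains MAP3K14 protein. Its levels were 66.2, 51.8 and 54.8 CPM in siCtrl against 30.2, 24.9 and 27.7 CPM in siDDX17. The highest siDDX17 library was far below the lowest control. BIRC3 had a log2 fold change of -1.06 (SE 0.0938, adjusted p = 9.72e-07), a change of -52.1%. Without siCtrl 1 it was -0.96, just inside the fold limit.

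ICAM1 (ENSG00000090339.8, chromosome 19 from 10271093 to 10286615, plus strand) encodes an adhesion molecule to which leukocyte integrins bind. It had 6.53, 4.61 and 4.59 CPM in siCtrl against 2.34, 2.33 and 2.10 CPM in siDDX17. One control, siCtrl 1, stood above the other 2, which were almost equal. The log2 fold change, -1.22 (SE 0.163, adjusted p = 4.18e-05), was the most negative of the 10 genes, and without siCtrl 1 it was -1.04. The antisense gene ICAM4-AS1 overlaps 23.6% of the exon bases of ICAM1 but had only 0 to 2 counts per library.

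TNFAIP2 (ENSG00000185215.8, chromosome 14 from 103121476 to 103137439, plus strand), a TNF-induced gene whose product takes part in membrane protrusion and tunnelling nanotube formation, was the most abundant of the 10 in CPM. Its levels were 277, 253 and 269.9 CPM in siCtrl against 186, 183 and 177 CPM in siDDX17. The groups were narrow and well separated. Its log2 fold change was -0.55 (SE 0.0565, adjusted p = 4.01e-06), or -31.6%.

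Per length, the order of the 10 genes in siCtrl ran from NFKBIA (57.96 ± 2.61 FPKM, SD, n = 3) and TNFAIP2 (52.1 ± 3.56) through NFKB2 (36.0 ± 2.16), RELA (28.2 ± 0.510), RELB (15.1 ± 1.50), BIRC3 (7.65 ± 1.17), NFKB1 (3.18 ± 0.17), TNFAIP3 (2.5 ± 0.435) and ICAM1 (1.48 ± 0.347) to NFKBIZ (0.373 ± 0.104). Only NFKBIA and TNFAIP2, neighbours at the top, overlapped in their siCtrl libraries. In siDDX17 NFKBIA and TNFAIP2 changed places, as did NFKB2 and RELA. TNFAIP2 stood at 38.9 ± 0.752 FPKM and NFKBIA at 38.1 ± 0.756 with overlapping libraries, whereas RELA (22.1 ± 0.598) and NFKB2 (18.3 ± 0.444) did not overlap. ICAM1 and NFKBIZ, more than 3-fold apart in siCtrl, were close in siDDX17, at 0.693 ± 0.0379 and 0.653 ± 0.0493 FPKM with overlapping libraries.

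Upstream of these genes, 9 of 10 listed receptor genes were tested, of which 1 was lower, 4 were higher and 4 did not pass. That was 11.1% lower and 44.4% higher, beside 24.3% and 24.5% of all tested genes. IL1R1, the signalling receptor for IL-1, had 13.9, 12.8 and 12.7 CPM in siCtrl against 34.9, 34.0 and 39.8 CPM in siDDX17, with a log2 fold change of 1.46 (SE 0.0814, adjusted p = 1.8e-08). TNFRSF1B, the gene of TNF receptor 2, was also past the fold limit at 1.15 (SE 0.205, adjusted p = 0.00044), but at 0.679 to 1.84 CPM. The lymphotoxin β receptor gene LTBR (0.37, SE 0.063) and the TWEAK receptor gene TNFRSF12A (0.24, SE 0.0589), which feed the noncanonical branch, were higher as well. CD40, another listed receptor of that branch, lay on the other side and did not pass (-0.24, SE 0.124, adjusted p = 0.124). Without siCtrl 1 it was lower at -0.32 (adjusted p = 0.0307). TNFRSF1A, the gene of TNF receptor 1 and the most abundant receptor of the list, was lower at -0.22 (SE 0.0561, adjusted p = 0.00579), a call that was lost with library sizes alone (adjusted p = 0.101). The median of the list was 0.35.

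All 26 listed kinases and adaptors were tested, and 10 were lower, 3 were higher and 13 did not pass. The shares were 38.5% lower and 11.5% higher, beside 24.3% and 24.5% of all tested genes. None of the 26 was past the fold limit, and their log2 fold changes ran from -0.62 to 0.42 with a median of -0.09. MAP3K14, the kinase of the noncanonical branch, had 78.3, 83.9 and 99.0 CPM in siCtrl against 65.5, 67.1 and 62.1 CPM in siDDX17 (log2 fold change -0.43, SE 0.0784, adjusted p = 0.000561). MYD88, the adaptor of IL-1 and Toll-like receptors, was lower at -0.28 (SE 0.0582, adjusted p = 0.00129). RBCK1, a subunit of the linear ubiquitin ligase, was lower at -0.24 (SE 0.0555, adjusted p = 0.00275), and IRAK1, a kinase downstream of MYD88, did not pass at -0.09 (SE 0.0527, adjusted p = 0.186). The 3 higher genes, named after their values were seen, were TRAF3, TAB1 and SHARPIN. For the core IκB kinase genes CHUK, IKBKB and IKBKG, also looked at after the fact, the groups overlapped, with log2 fold changes of -0.10, 0.01 and -0.08. With library sizes alone as the scale, 6 kinases and adaptors were lower and 6 were higher, RBCK1 no longer passed (adjusted p = 0.0927), and the values of IRAK1, CHUK and IKBKG lay above 0.

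Of 13 further negative regulators 12 were tested, and 4 were lower, 1 was higher and 7 did not pass, with a median of -0.09. In percent, 33.3 were lower and 8.33 higher, beside 24.3 and 24.5 of all tested genes. TNIP2, which encodes an A20-binding partner, had 42.2, 45.5 and 47.5 CPM in siCtrl against a mean of 31.5 CPM in siDDX17 (log2 fold change -0.52, SE 0.064, adjusted p = 2.03e-05). Its relative TNIP1, the most abundant gene of the list, had 143 to 165 CPM in siCtrl and 151 to 159.8 CPM in siDDX17, and the groups overlapped (0.01, SE 0.0624, adjusted p = 0.866). The other lower genes, chosen after their values were seen, were the deubiquitinases CYLD and OTULIN and the RNA-degrading regulator N4BP1. PDLIM2, which encodes a ligase that targets nuclear p65 for degradation, was higher at 0.40 (SE 0.0665, adjusted p = 0.000248), and TAX1BP1, another A20 partner, did not pass at 0.09 (SE 0.0673, adjusted p = 0.316).

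**Figure D3:**
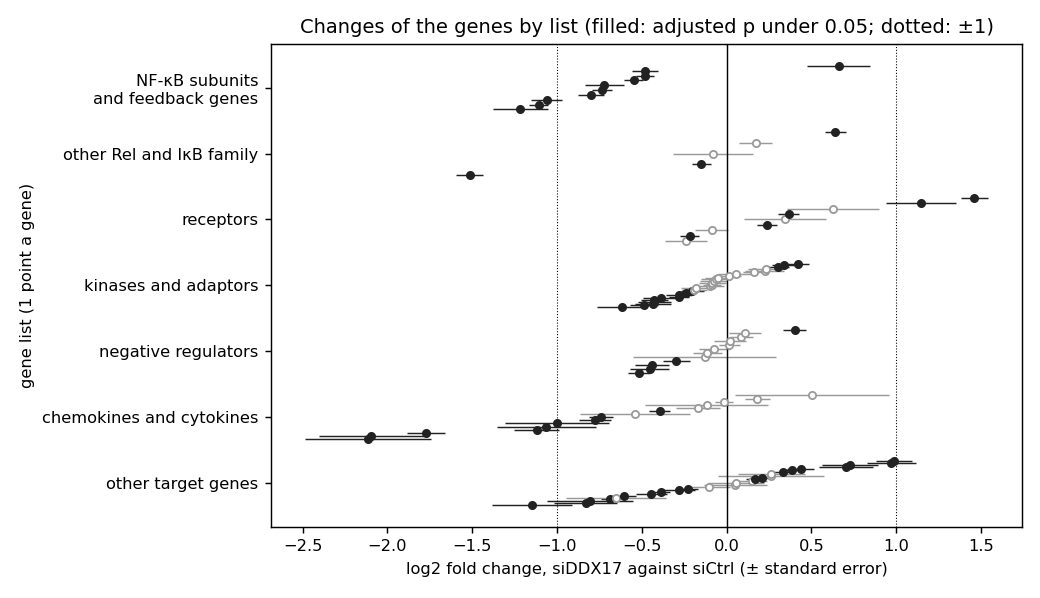
Log2 fold change of siDDX17 against siCtrl (x axis, with its standard error) for each tested gene of the 10 described here and of 6 further lists of the pathway (y axis). Filled points have an adjusted p under 0.05, open points do not, and the dotted lines mark an absolute log2 fold change of 1. The points of the 10 genes and of the chemokines lie mostly left of 0, with medians of -0.73 and -0.74, while those of the kinases and adaptors lie around 0.

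Read beside these genes, the chemokines and cytokines were mostly lower too. Of 24 listed genes 15 were tested, of which 9 were lower, 0 were higher and 6 did not pass (median log2 fold change -0.74). Thus 60% were lower and 0% higher, beside 24.3% and 24.5% of all tested genes. One further gene of the list, IL18, had a log2 fold change of 0.18 and an adjusted p of 0.0524, and was higher under several other settings. The 9 untested genes, among them TNF, IL1B and CXCL10, had at most 26 counts in any library. CXCL5, a neutrophil chemokine, had 76.9, 54.3 and 57.3 CPM in siCtrl against 18.0, 17.9 and 19.4 CPM in siDDX17, a log2 fold change of -1.77 (SE 0.111, adjusted p = 4.88e-08). CCL20, which attracts CCR6-bearing lymphocytes and dendritic cells, had 3.48, 1.75 and 1.79 CPM in siCtrl against 0.415, 0.576 and 0.649 CPM in siDDX17 (log2 fold change -2.10, SE 0.309, adjusted p = 9.35e-05). Neither gene showed overlapping groups, and both log2 fold changes were more negative than that of any of the 10 genes.

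The further chemokines past the fold limit were the neutrophil attractants CXCL2, CXCL3 and CXCL8 and the T cell and monocyte attractant CCL5. Their log2 fold changes were -1.06 (SE 0.292), -2.12 (SE 0.37), -1.12 (SE 0.135) and -1.003 (SE 0.307). For CXCL2 the value rested in part on siCtrl 1, which had 9.42 CPM against 4.02 and 3.87 CPM in the other controls, and without it the log2 fold change was -0.52. CXCL2 also did not pass on log2(FPKM + 1) (adjusted p = 0.103, limma). Without siCtrl 1 those of CXCL3 and CCL20 were -1.53 and -1.70, that of CXCL8 was -0.96 and thus inside the fold limit, and CCL5, with 13 to 30 counts per library, no longer passed (-0.79, adjusted p = 0.0828). CXCL1, chosen after its values were seen as the closest relative of CXCL2, had overlapping groups and did not pass (-0.17, SE 0.129, adjusted p = 0.30). CSF1 (-0.01, SE 0.0535, adjusted p = 0.843) did not pass either, and LIF was lower at -0.40 (SE 0.0643).

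The siCtrl 1 library was thus the highest control for several chemokines and for several of the 10 genes. Its level was 2.50 times the mean of the other 2 controls for CXCL3, 2.39 times for CXCL2, 1.97 times for CCL20 and 1.38 times for CXCL5. Among the 10 genes the ratio was 1.51 for NFKBIZ, 1.42 for ICAM1 and 1.24 for both TNFAIP3 and BIRC3, and it lay between 0.900 and 1.12 for the other 6. NFKBIZ was thereby highest among the controls in the same library as ICAM1, CXCL2, CXCL5 and CCL20. Its difference between the groups had the opposite sign to theirs. The part of siCtrl 1 in these values was measured by leaving it out, and all 10 genes then kept their direction and passed the test.

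**Figure D4:**
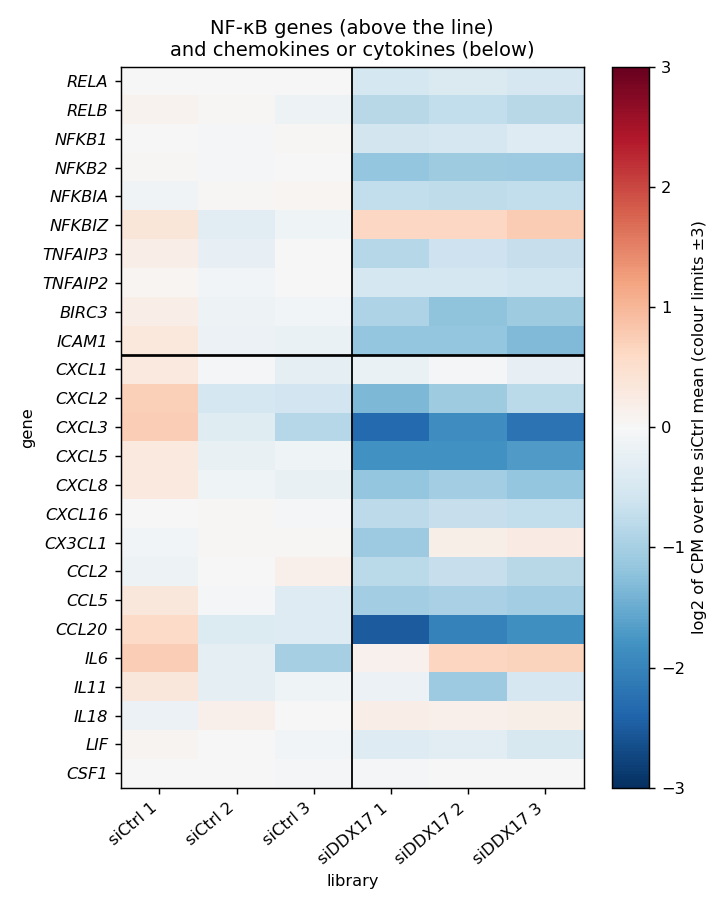
Log2 ratio of the CPM in each library (columns) to the siCtrl mean of the gene (rows), for the 10 genes above the line and the 15 tested chemokine and cytokine genes below it, with blue for lower and red for higher. NFKBIZ is the only red row among the 10 genes in siDDX17. The siCtrl 1 column is reddest for IL6, CXCL3, CXCL2 and CCL20 (0.74, 0.74, 0.71 and 0.57), of which IL6 did not pass the test.

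Over the 6 libraries, the gene most like each of the 10 among the listed pathway genes was found by Pearson's correlation of log2 CPM, which is given as a description. The libraries fall into the 2 groups, so that every such value mainly holds the difference between siCtrl and siDDX17. NFKB2 was most like NFKBIE (r = 0.999, n = 6), ICAM1 most like CXCL8 (0.996), BIRC3 most like CXCL5 (0.989) and TNFAIP3 most like CCL20 (0.978). RELA was most like CXCL16 (0.999), RELB like IER3 (0.995), NFKB1 like NFKB2 (0.984), NFKBIA like TNIP2 (0.995) and TNFAIP2 like IRF1 (0.996). NFKBIZ was most like PTX3, at 0.928 the weakest of these values.

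The remaining target genes of NF-κB did not share one direction. Of 28 listed genes 25 were tested, and 9 were lower, 9 were higher and 7 did not pass, with a median of 0.05. Each direction held 36%, beside 24.3% lower and 24.5% higher among all tested genes. TRAF1, an adaptor that binds the cIAP proteins, was past the fold limit, with 2.51, 1.75 and 1.55 CPM in siCtrl against 0.726, 0.850 and 1.04 CPM in siDDX17 (log2 fold change -1.15, SE 0.237, adjusted p = 0.00132). The siCtrl 1 library was 1.52 times the mean of the other 2 controls, and without it the log2 fold change was -0.92, inside the fold limit. The abundant genes PLAU, encoding urokinase, and IER3, an early response gene, were lower at -0.44 (SE 0.0906) and -0.39 (SE 0.0577). For PLAU, siCtrl 1 had 244 CPM against 191 and 181 CPM in the other controls, and without it the log2 fold change was -0.31. PLAU also did not pass on log2(FPKM + 1) (adjusted p = 0.0657, limma). By contrast, the complement gene C3 was higher at 0.39 (SE 0.061) and BCL2L1, the gene of the survival protein BCL-XL, at 0.17 (SE 0.053, adjusted p = 0.0191).

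The 3′ UTR of each canonical transcript was searched for 7-base matches to bases 2 to 8 of both siRNA strands, the seed with which small RNAs can act on mRNAs other than their target. For the DDX17 siRNA, the antisense seed was matched in NFKB1 alone among the 10 genes, against 14.5% of 12986 genes, and the sense seed in BIRC3 alone, against 10.5%. For the control siRNA, the sense seed was matched in none of the 10 and the antisense seed in TNFAIP2, against 2.13% and 3.07% of the genes. The part of these matches in the measured differences was not tested.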

How the data were processed

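Stranded libraries of polyadenylated RNA were sequenced by the authors, who mapped the trimmed reads to GRCh38 with TopHat2 and deposited raw counts of uniquely mapped reads per gene. They also deposited FPKM values, which are relative to gene length and to library size without TMM. The counting program, the annotation and the use of strand are not given in the sources used here, so overlapping and antisense genes are uncertain. The counts (29476 genes) were tested with edgeR 4.0.16 in R 4.3.3 (TMM, filterByExpr, glmQLFit and glmQLFTest, Benjamini-Hochberg adjustment over 15615 genes, called at an adjusted p under 0.05). CPM are relative to the TMM-scaled library size. Log2 CPM used a prior count of 2. Alternatives were DESeq2 1.42.0, 3 other scalings, 2 other filters, limma 3.58.1 on log2(FPKM + 1) and log2(FPKM + 0.1), stricter limits, the replicate number as a block and each library left out. The test was run on simulated counts with the same spread for every gene and 200 changed genes (absolute log2 fold change 1). Of these, 199 passed, as did 5 unchanged genes. The unequal spread and the large share of passing genes in the real data were not simulated.

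The members and the lists were chosen with earlier results of these data known. Named were the 10 members, DDX17, CXCL5, CCL20, the gene most like each member and, from each list, the genes past the adjusted p and the fold limit and the 4 with the highest mean CPM. Positions are from GENCODE release 44 and promoters from RefSeq. Python 3.11.15 with pandas 2.3.3, scipy 1.17.1 and matplotlib 3.10.9 was used. Only the counts and the FPKM were used, and the splicing data and the other assays of the study were not analysed here.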

Additional observations from a re-analysis of the deposited data

How the results depend on the processing

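DDX17 and each of the 10 genes kept their direction and passed the test under all 15 alternatives of scaling, tool, filter, values, block and left-out library. The largest adjusted p among them was 0.0461, for NFKBIZ. The log2 fold changes nearest to 0 were those on log2(FPKM + 1), which understates the change of low genes, such as -0.54 for ICAM1 and 0.27 for NFKBIZ. With library sizes alone as the scale, the median of all genes moved up by 0.12 and 32.3% of the passing genes were lower, in place of 49.9%. The log2 fold changes of NFKB2 and BIRC3 were then -0.99 and -0.94, inside the fold limit, and that of ICAM1 was -1.10. Leaving out 1 library at a time, the log2 fold change of NFKBIZ, which had the fewest counts, ranged from 0.52 to 0.87. That of ICAM1 ranged from -1.31 to -1.04. The causes of the moves below were not tested.

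With the fold limit added, 3 members were lower and 0 higher, 1 and 0 other Rel and IκB genes, 0 and 2 receptors, 0 and 0 kinases and adaptors, 0 and 0 negative regulators, 1 and 0 other targets, and 456 and 726 of all genes. With an unadjusted p under 0.01 and a fold change over 1.5, the limits of the methods, 6 members were lower (all but RELA, NFKB1 and TNFAIP2) and 1 was higher, 8 chemokines or cytokines were lower, 1 other Rel or IκB gene was lower, 0 receptors were lower and 2 higher, 1 kinase or adaptor was lower and 0 higher, 0 and 0 negative regulators, 5 and 4 other targets, and 1254 and 1713 of all genes. With library sizes only, 1 other Rel or IκB gene was lower and 2 were higher, 0 receptors were lower, 6 kinases and adaptors were lower and 6 higher, 2 negative regulators and 1 chemokine or cytokine were higher, and 2494 of all genes were lower. On log2(FPKM + 1) and log2(FPKM + 0.1), 1 other Rel or IκB gene was lower in both and 2 were higher in the latter, 0 receptors were lower, 5 and 3 kinases and adaptors were lower and 6 were higher in both, 1 negative regulator was lower and 1 chemokine or cytokine was higher in both, and 2334 and 2179 of all genes were lower. Under upper quartile scaling, no filter, and at least 10 reads in every library, 1 other Rel or IκB gene was lower and 1 chemokine or cytokine was higher, and with DESeq2 1 other Rel or IκB gene was lower. Leaving out 1 library, 1 to 2 other Rel and IκB genes and 1 to 2 receptors were lower, and 1 to 2 negative regulators and 0 to 1 chemokines or cytokines were higher.

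The correlations of the deviations gave no sign that the replicate numbers pair the libraries. They were 0.00698, 0.0407 and -0.0564 for the same numbers, and between -0.0624 and 0.0566 for different numbers. Such correlations cannot exclude that the cultures were handled in pairs. With the replicate block, all 10 genes passed in the same direction (9 lower and 1 higher, NFKB2 at -1.11), and 3738 genes were lower and 3743 higher.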
